A study of Mus musculus with 12 samples.

Results

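Regorafenib was compared with its absence over all 12 sequenced tumours, as the average of its effect without and with an antibody against the checkpoint receptor PD1. The 6 libraries with the drug were 3 labelled regorafenib and 3 labelled combination, and the 6 without it were 3 labelled vehicle and 3 labelled anti-PD1. Every one of the 12 libraries and all 16974 genes with enough counts, of 55487 identifiers, entered the comparison. Sq-1979, a mouse cell line of squamous carcinoma of the head and neck, had been placed with Matrigel beneath the skin of C3H/HeN mice, males aged 6 weeks. From day 20 after implantation the mice received regorafenib at 5 mg/kg per day, regorafenib with anti-PD1, vehicle, or anti-PD1, and the labels describe daily gavage as the route. They give no separate dose for the drugs in the combination. The model is therefore 1 cell line, at 1 stated dose, under the skin rather than in the mouth. Nothing in the labels says whether the 3 samples of a group were 3 mice, so p-values measure only the spread between these samples, which may be technical.

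Regorafenib is an oral inhibitor of several kinases, among them the receptors for VEGF, PDGF and FGF, KIT, RET, TIE2 and RAF. It is known for acting on blood vessels and connective tissue in tumours as well as on tumour cells. Several of the genes described here belong to the handling of RNA: SR proteins and hnRNPs bind pre-mRNA and steer splicing, CLK kinases phosphorylate SR proteins, and snoRNA host genes carry in their introns the small RNAs that guide modification of ribosomal RNA.

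The libraries held 22591835 to 28209036 counts. Levels are given as CPM (counts scaled to a common library size, with TMM factors) and differences as log2 fold changes, positive where the gene was higher with regorafenib, ± the standard error. Genes were tested with edgeR's quasi-likelihood test, and passed at a Benjamini-Hochberg adjusted p under 0.05. Markers of squamous carcinoma cells summed to 11087 to 13484 CPM (median 11814) with regorafenib and 11377 to 15559 CPM (median 13702) without it. Fibroblast markers summed to 4093 to 28577 CPM (median 7738) with regorafenib and 5728 to 31254 CPM (median 29205) without it, and endothelial markers to 50.4 to 89.5 CPM (median 78.3) with regorafenib and 83.3 to 114 CPM (median 94.0) without it. Fibroblast sums overlapped, since regorafenib 2 had the highest of the treated libraries and anti-PD1 1 the lowest of the others. These libraries also stood apart on the first principal component (34.1% of the variance), where regorafenib 2 lay with 5 untreated libraries and anti-PD1 1 with the other 5 treated ones. The 4 Y-linked genes tested, which a male host carries, summed to 18.1 to 41.7 CPM with regorafenib and 21.3 to 42.3 CPM without it. In such bulk tissue, fewer cells of a type and less RNA per cell cannot be told apart.

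With regorafenib, 1046 genes rose and 564 fell, which is 9.49% of the genes tested (6.16% higher, 3.32% lower). Of these, 191 rose and 119 fell at least 2-fold, so most changes were small: the median log2 fold change was 0.56 among the genes that rose and -0.36 among those that fell. DESeq2 called 2808 genes (16.5%). All 1610 had the same sign in both backgrounds, as did 72.6% of all genes tested, of which 8570 were positive in the average. The levels of 487 genes (2.87%) were higher in all 6 libraries with the drug than in any without it, and those of 301 (1.77%) were lower. In regorafenib against vehicle 1 gene passed (0.00589%), in the combination against anti-PD1 326 genes (1.92%), of which 288 were higher (1.7%) and 38 lower (0.224%), and the difference between these effects passed for 0 genes by edgeR (449 at an unadjusted p under 0.05) and 0 by DESeq2 (484 unadjusted). The unadjusted p of that difference was under 0.05 for 128 of the 1610 (7.95%), against 2.65% of all genes tested. Both effects enter the average, so neither is separate evidence for it. Calls depended on single libraries: 400 of the 1610 (298 higher, 102 lower) passed with each of the 12 libraries left out in turn. The count was 460 without anti-PD1 2, 522 without combination 2, 552 to 556 without a vehicle library (1, 2 or 3), 952 without anti-PD1 3 and 998 without combination 1. It was 1778 without regorafenib 2 and 2048 without anti-PD1 1.

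Noncoding RNA genes rose far more often than they fell. Of 1547 tested noncoding genes, 224 rose and 4 fell, or 14.5% and 0.259%, with a median log2 fold change of 0.35. The set holds the long noncoding classes of the GENCODE annotation and its class still to be tested by experiment. Among 14198 protein-coding genes 762 rose and 549 fell (5.37% and 3.87%), with a median of -0.01. Long intergenic RNAs rose in 67 of 461 cases and fell in 2, processed transcripts rose in 35 of 252, antisense RNAs in 34 of 397 and sense intronic RNAs in 14 of 48, with 0 lower in these last 3 classes. Transcripts that GENCODE lists as still to be experimentally tested (TEC), often unspliced, rose in 65 of 307 cases and fell in 2. Processed pseudogenes did not share this pattern, with 13 higher and 9 lower of 886 and a median of -0.03. At a mean of at least 1 CPM, 159 of 717 noncoding genes rose and 2 fell. With 1 library left out, 79 to 258 of the 1547 were higher and 0 to 15 lower, with the fewest higher without anti-PD1 2 and 258 without anti-PD1 1, and the median stayed between 0.32 and 0.41. The strand setting of the counting is not given in the sources used here, so reads of antisense and sense intronic genes cannot be told apart from those of the genes they overlap. Among protein-coding and host genes named below, Ptger1, Tagln, Mest, Ppox, Adar, Srsf2, Clk3, Ndufb11, Hmgcs1 and Snhg6 share more than 10% of their exonic bases with a gene on the opposite strand, and the same limit holds for them.

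The counts of a class can also be given as a share of each library's counts, a measure that was chosen after the data had been seen, restates the levels of these genes and is given without a test. Long intergenic RNAs took 0.388 to 0.577% (median 0.466%) with regorafenib and 0.318 to 0.411% (median 0.356%) without it. Processed transcripts took 0.255 to 0.316% (median 0.273%) with regorafenib and 0.217 to 0.238% (median 0.221%) without it, and TEC transcripts 0.0518 to 0.0883% (median 0.0625%) with regorafenib and 0.0385 to 0.0538% (median 0.0415%) without it. For processed transcripts every library with regorafenib lay above every one without it, while for the other classes anti-PD1 1 reached into the range of the drug-treated libraries. Protein-coding genes took 97.4 to 97.8% (median 97.6%) with regorafenib and 97.7 to 98.0% (median 97.9%) without it. Counts of the mitochondrial genome took 1.31 to 1.85% (median 1.47%) with regorafenib and 1.16 to 1.44% (median 1.28%) without it, and these ranges overlapped.

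**Figure D1:**
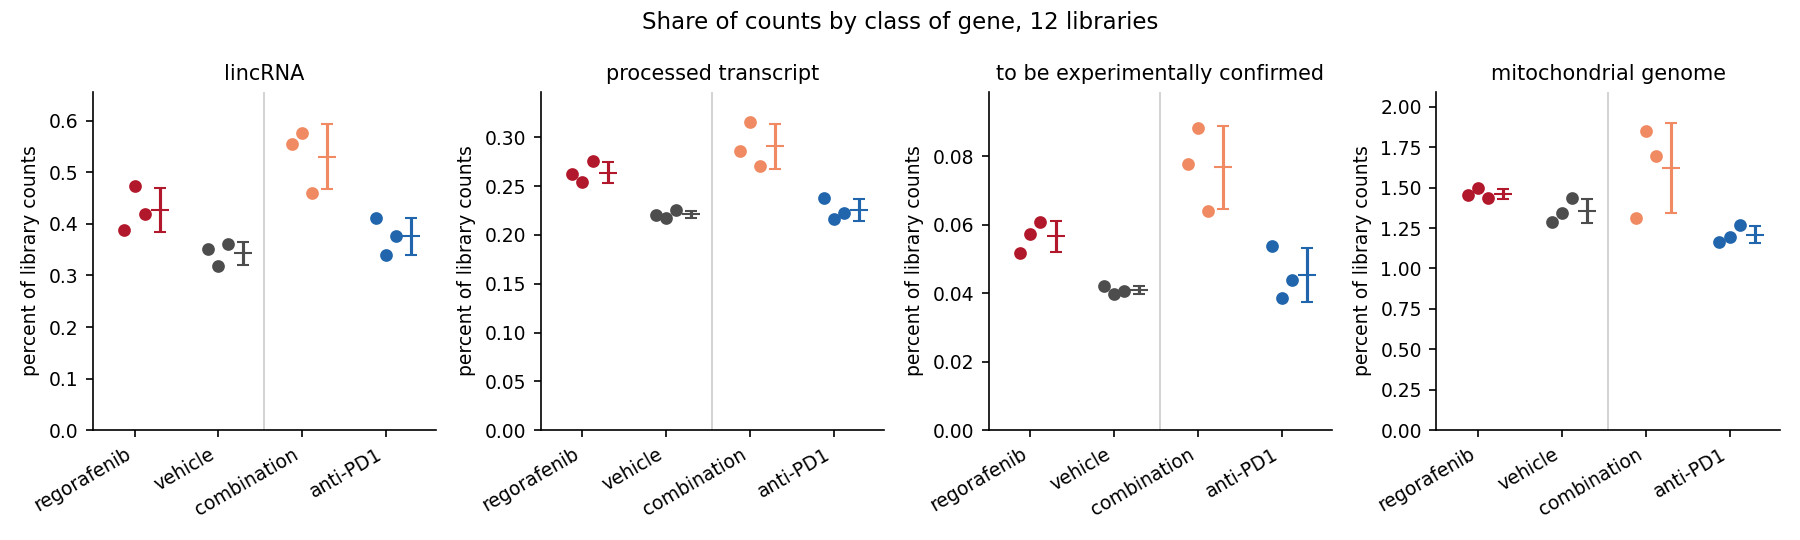
Percent of each library's counts (vertical axis) in 4 classes of gene, for the regorafenib, vehicle, combination and anti-PD1 groups; each point is 1 library, and the bars are the mean and SD of 3. Processed transcripts lie at 0.255 to 0.316% in the libraries with regorafenib and at 0.217 to 0.238% in those without it.

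Several nuclear RNAs were among the genes that rose. Neat1, the scaffold RNA of nuclear paraspeckles, had 595 to 1504 CPM (median 1005) with regorafenib and 389 to 661 CPM (median 478) without it (log2 fold change 0.97 ± 0.18, adjusted p 0.0139). Regorafenib 1 was lowest of the treated libraries and lay below anti-PD1 1, the highest of the others. Malat1, an abundant RNA of nuclear speckles, had 159.5 to 405 CPM (median 245) with regorafenib and 99.4 to 189 CPM (median 131) without it (log2 fold change 0.94 ± 0.19, adjusted p 0.0178), again with regorafenib 1 below anti-PD1 1. Firre, an X-linked RNA that organises nuclear chromatin, had 110.0 to 211 CPM (median 161) with regorafenib and 96.7 to 124 CPM (median 104) without it (log2 fold change 0.64 ± 0.12, adjusted p 0.0136). Pvt1, the neighbour of Myc, rose as well (log2 fold change 0.59, adjusted p 0.0148), as did Mir17hg (1.00, 0.0156), the host transcript of the miR-17-92 microRNA cluster, whose levels did not overlap between the groups. In all, 8 of 17 tested nuclear and microRNA-host RNAs rose (47.1%) and 0 fell. The share that rose was 14.5% over noncoding genes, 22.2% over noncoding genes averaging 1 CPM or more, and 6.16% over all genes. The median of the 17 was 0.59, against 0.35 over noncoding genes and 0.00 over all genes. With 1 library left out, 3 to 9 of the 17 passed as higher, the fewest without vehicle 1. The 4 members with negative values were H19 (-1.25, adjusted p 0.0990), Meg3 (-1.02, 0.149), Mirg (-1.44, 0.192) and Miat (-1.36, 0.325), which passed as lower in the fit without regorafenib 2 and were named after their values were seen. Malat1, Neat1, Pvt1 and Mir17hg share exonic bases with other annotated RNAs, which leaves the split of their reads uncertain. Malat1 lost its call without vehicle 1 or vehicle 3 (adjusted p up to 0.0525). Mir17hg lost its call without vehicle 1 (adjusted p up to 0.05003). Malat1 was named after its values were seen as well.

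Of 17 tested small nucleolar RNA host genes, most of them noncoding, 7 rose and 0 fell. This is 41.2% higher, against 14.5% of noncoding genes, 22.2% of noncoding genes averaging 1 CPM or more, and 6.16% of all genes. The median of the list was 0.25, below the 0.35 of noncoding genes together. Snhg17 had 66.7 to 98.5 CPM (median 78.5) with regorafenib and 40.7 to 49.0 CPM (median 45.2) without it (log2 fold change 0.85 ± 0.074, adjusted p 0.00181), so that the groups were separate. Snhg15 had 25.9 to 32.9 CPM (median 30.4) with regorafenib and 18.5 to 23.7 CPM (median 20.1) without it (log2 fold change 0.56 ± 0.071, adjusted p 0.00453), and Snhg20 had 22.7 to 37.4 CPM (median 27.9) with regorafenib and 13.8 to 20.0 CPM (median 19.2) without it (log2 fold change 0.71 ± 0.11, adjusted p 0.00751), also without overlap. Snhg6 (0.34, 0.0118) rose too, as did Dancr (0.52, 0.0130), named after its values were seen. These 5 kept their calls in every fit with 1 library left out, where the list had 5 to 9 members higher. The mature snoRNAs are too short and lack a poly(A) tail, so these libraries of polyadenylated RNA report the host transcripts and not their products.

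Splicing regulators had more members higher than lower. Of 41 tested SR and hnRNP proteins and their kinases, 14 rose and 0 fell (34.1% against 6.16% of all genes), with a median of 0.13. All 4 CLK kinases were among them. Clk4 had 67.7 to 102 CPM (median 87.9) with regorafenib and 49.7 to 61.0 CPM (median 53.7) without it (log2 fold change 0.67 ± 0.095, adjusted p 0.00532), and Clk1 had 118 to 191 CPM (median 158) with regorafenib and 102 to 120.0 CPM (median 106) without it (log2 fold change 0.54 ± 0.10, adjusted p 0.0139). For Clk4 the groups were separate, while for Clk1 regorafenib 1 lay just below anti-PD1 1. Clk2 (0.38, 0.0141) and Clk3 (0.37, 0.0111) rose by smaller amounts. Among SR proteins, Srsf11 had 207 to 276 CPM (median 229) with regorafenib and 155 to 183 CPM (median 177) without it (log2 fold change 0.44 ± 0.057, adjusted p 0.00453), and Srsf5 (0.54, 0.0110), Srsf2 (0.36, 0.0134) and Srsf1 (0.34, 0.0144) rose too, as did the hnRNP gene Hnrnph1 (0.40, 0.0102). The 9 genes named here kept their calls with each library left out, and Clk1, Clk2, Clk3, Srsf1 and Srsf2 were named after their values were seen. With 1 library left out 9 to 15 members were higher and 0 lower.

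Core components of the spliceosome and factors bound to it, a family added after the values were seen, had 14 higher and 1 lower of 56. These are 25% and 1.79%, against 6.16% and 3.32% of all genes, and the median was -0.02. Of the 56, 26 were positive and 30 negative. Snrnp48, a protein of the minor spliceosome, had 47.6 to 66.2 CPM (median 53.8) with regorafenib and 34.1 to 39.2 CPM (median 37.3) without it (log2 fold change 0.59 ± 0.068, adjusted p 0.00308). Luc7l3, which binds the U1 particle, had 128 to 168 CPM (median 133) with regorafenib and 78.8 to 113 CPM (median 94.3) without it (log2 fold change 0.57 ± 0.075, adjusted p 0.00475). Neither overlapped between the groups. The relative Luc7l (0.39, 0.00733), the L-type cyclins Ccnl1 (0.55, 0.00551) and Ccnl2 (0.67, 0.00496), which partner kinases of the splicing apparatus, and the speckle scaffold Srrm2 (0.55, 0.00496) rose as well, of which Luc7l and Ccnl1 were named after their values were seen. Among RNA-binding motif proteins, likewise added after the values were seen, 7 of 37 rose (18.9%) and 0 fell, Rbm25 (0.60, 0.00581) and Rbm33 (0.56, 0.00566) among them. DEAD and DEAH box helicases, which remodel RNA, had 7 of 50 higher (14%) and 0 lower with a median of 0.06. Without anti-PD1 2 the helicases had 0 higher, the Rbm family 2 and the spliceosome family 10. Snrnp48, the formin-binding gene Fnbp4 (0.59, 0.00371) and the zipper factor gene Crebzf (0.53, 0.00298) were among the 15 higher genes with the smallest p.

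**Figure D2:**
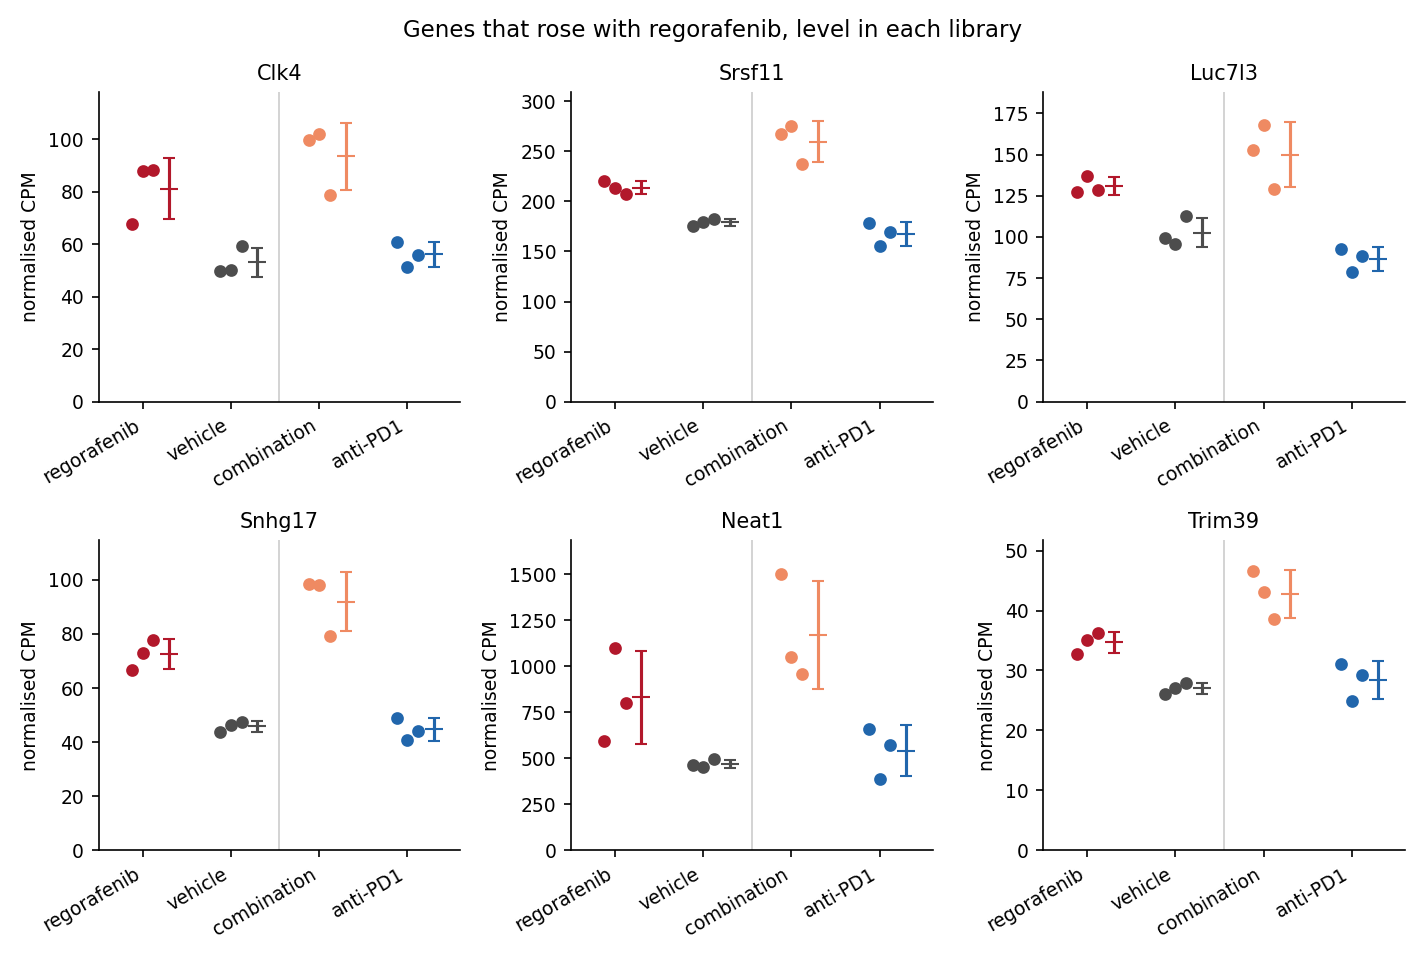
Level (CPM, vertical axis) of 6 genes that rose, in the regorafenib, vehicle, combination and anti-PD1 groups; each point is 1 library, and the bars are the mean and SD of 3. Groups with and without regorafenib are separate for Clk4, Srsf11, Luc7l3, Snhg17 and Trim39, and overlap for Neat1, where regorafenib 1 (594.9 CPM) lies below anti-PD1 1 (660.9 CPM).

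Of 46 tested factors of ribosome biogenesis 5 rose (10.9% against 6.16% of all genes) and 0 fell, with a median of 0.08. In the fits with 1 library left out 2 to 5 were higher, the fewest without anti-PD1 2, and 7 to 22 were negative, and with the replicate block 2 were higher. Polr1b, a large subunit of RNA polymerase I, had 30.5 to 35.4 CPM (median 32.0) with regorafenib and 23.2 to 26.7 CPM (median 25.1) without it (log2 fold change 0.37 ± 0.061, adjusted p 0.00823), with no overlap. The nucleolar GTPase gene Gnl3 (0.32, 0.0124), which itself hosts snoRNAs, rose too. Both kept their calls in every fit with 1 library left out. Cytosolic ribosomal proteins had 1 of 89 higher, the low-level entry Rps10 (0.77, 0.0146), which shares bases with a read-through transcript, and a median of 0.01. Nonsense-mediated decay and exosome genes had 1 higher and 1 lower of 30 (3.33% each, against 6.16% and 3.32% of all genes). Translation initiation factors had 0 higher and 1 lower of 48 (2.08%, against 3.32% of all genes), with 38 negative. The RNA-editing enzyme gene Adar (0.39, 0.0141) rose and kept its call in every such fit.

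Protein-coding genes that rose were longer on the median than those that fell. The median exonic length was 5501 bases in the 762 that rose, 3527 in the 549 that fell and 4372 in all 14198. In the same order, their longest transcripts had a median of 12.5, 8 and 9 exons, and their median GC content was 51.5%, 49.2% and 49.9%. No measure of RNA integrity was used here, and the part of transcript length or RNA quality in these results was not tested.

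Some nuclear genes of the respiratory chain fell, by small amounts. Of 37 nuclear-encoded subunits and assembly factors of respiratory complex I, 11 fell and 1 rose (29.7% lower against 3.32% of all genes), and 34 were negative, with a median of -0.15. Ndufs8, a subunit with iron-sulfur clusters, had 52.8 to 59.9 CPM (median 56.5) with regorafenib and 61.1 to 74.5 CPM (median 68.8) without it (log2 fold change -0.26 ± 0.050, adjusted p 0.0156), and all 6 treated libraries lay below the other 6. Ndufb11, a membrane subunit, had 80.8 to 105 CPM (median 88.5) with regorafenib and 104 to 115 CPM (median 110.4) without it (log2 fold change -0.30 ± 0.061, adjusted p 0.0165), with a slight overlap. Ndufa11 (-0.25, 0.0156) and Ndufa1 (-0.36, 0.0176), also membrane subunits, fell as well. The gene that rose was Ndufab1 (0.24, 0.0336), named after its values were seen, an acyl carrier protein that serves complex I and mitochondrial fatty acid synthesis. Ndufa1 lost its call without anti-PD1 2 (adjusted p up to 0.0508). Ndufab1 lost its call without regorafenib 1, regorafenib 3, combination 1, combination 2, any vehicle library, anti-PD1 2 or anti-PD1 3 (adjusted p up to 0.104). With 1 library left out, 3 to 10 subunits were lower (fewest without anti-PD1 2) and 34 to 36 were negative.

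ATP synthase and complexes II to IV, added after the values were seen, had 10 lower (21.7%, against 3.32% of all genes) and 0 higher of 46. Of the 46, 41 were negative, with a median of -0.15. The subunits Cox6a1 (-0.26, 0.0199) and Cox7a2 (-0.21, 0.0254) of cytochrome oxidase and Sdhc (-0.22, 0.0335) of succinate dehydrogenase were among the 10 that fell. Their calls were less firm: without anti-PD1 2 the family had 0 lower. Cox6a1 lost its call without vehicle 2, vehicle 3 or anti-PD1 2 (adjusted p up to 0.0593). Cox7a2 lost its call without combination 1, combination 2, vehicle 2, vehicle 3, anti-PD1 2 or anti-PD1 3 (adjusted p up to 0.0698). Sdhc lost its call without regorafenib 2, regorafenib 3, combination 1, combination 2, any vehicle library or anti-PD1 2 (adjusted p up to 0.0863). The tricarboxylic acid cycle had 3 lower (11.1%, against 3.32% of all genes) and 0 higher of 27, Sdhc among them, with 24 negative. Of 77 mitochondrial ribosomal proteins 3 were lower (3.9%, near the 3.32% of all genes), 0 were higher and 63 were negative. All 7 tested proteins of the mitochondrial genome itself were positive in the average (median 0.19), and 0 of 7 by edgeR (3 at an unadjusted p under 0.05, 2 by DESeq2) passed the threshold. The closest was mt-Co1 (0.30, 0.0814), which encodes the catalytic subunit of cytochrome oxidase. The median of the 7 was -0.02 for regorafenib alone and 0.37 on anti-PD1, a difference that was not tested for the list.

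**Figure D3:**
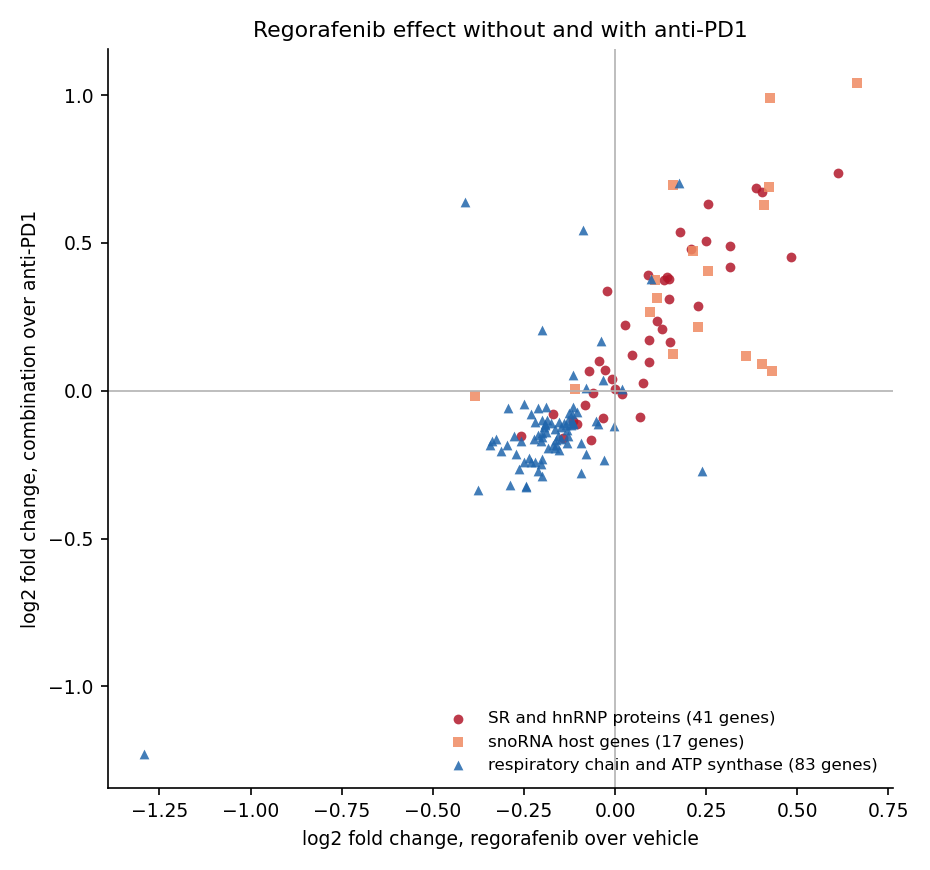
Log2 fold change of regorafenib over vehicle (horizontal axis) and of the combination over anti-PD1 (vertical axis); each point is 1 tested gene of the SR and hnRNP list (41), the snoRNA host list (17) or the nuclear respiratory chain and ATP synthase (83). Splicing and host genes extend furthest into the upper right, and most respiratory genes gather in the lower left close to the origin.

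Fatty acid oxidation had 3 lower and 0 higher of 21 (14.3% lower, against 3.32% of all genes), with a median of -0.20. Hadhb, a subunit of the mitochondrial trifunctional protein, had 48.5 to 54.8 CPM (median 50.6) with regorafenib and 59.1 to 65.1 CPM (median 61.9) without it (log2 fold change -0.28 ± 0.048, adjusted p 0.0102). Eci1, an enoyl-CoA isomerase, had 32.5 to 35.7 CPM (median 34.4) with regorafenib and 39.9 to 46.4 CPM (median 42.6) without it (log2 fold change -0.32 ± 0.048, adjusted p 0.00699). In both, the treated libraries lay below all others. The partner subunit Hadha (-0.23, 0.0196) fell too. Hadha lost its call without combination 2, vehicle 2, vehicle 3 or anti-PD1 2 (adjusted p up to 0.0593). Idh1, the cytosolic isocitrate dehydrogenase that makes NADPH, had 26.2 to 32.8 CPM (median 29.7) with regorafenib and 39.7 to 63.1 CPM (median 56.4) without it (log2 fold change -0.87 ± 0.10, adjusted p 0.00308), a clear separation. It was the 1 of 20 NADPH-producing genes that passed (5% lower, against 3.32% of all genes), with 15 negative. The malate carrier Slc25a11 (-0.24, 0.0148) and the matrix aminotransferase Oat (-0.39, 0.0119), which makes glutamate semialdehyde from ornithine, fell and kept their calls with each library left out. Glycolysis genes had 0 of 23 by edgeR (2 at an unadjusted p under 0.05, 2 by DESeq2) past the threshold and 20 positive, with a median of 0.15.

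Some enzymes of cholesterol synthesis fell. Of 20 tested 4 fell and 1 rose (20% and 5%, against 3.32% and 6.16% of all genes), and 19 were negative, with a median of -0.43, which was -0.62 for regorafenib alone and -0.16 on anti-PD1, a difference that was not tested for the list. Mvk, mevalonate kinase, had 11.6 to 15.4 CPM (median 13.7) with regorafenib and 17.2 to 28.0 CPM (median 22.1) without it (log2 fold change -0.69 ± 0.096, adjusted p 0.00496), and the groups were separate. Ebp, a sterol isomerase, had 27.1 to 35.3 CPM (median 32.8) with regorafenib and 33.9 to 46.0 CPM (median 43.3) without it (log2 fold change -0.43 ± 0.079, adjusted p 0.0137). Nsdhl, a sterol dehydrogenase, had 19.9 to 35.6 CPM (median 25.1) with regorafenib and 28.5 to 53.6 CPM (median 41.7) without it (log2 fold change -0.64 ± 0.14, adjusted p 0.0237), and Hmgcs1, the HMG-CoA synthase at the head of the pathway, had 123 to 185 CPM (median 135) with regorafenib and 171 to 209 CPM (median 204) without it (log2 fold change -0.43 ± 0.10, adjusted p 0.0295). In these 3 the groups overlapped. The 1 gene that rose was Tm7sf2 (0.63, 0.0302), a sterol reductase that shares bases with its neighbour Vps51 and was named after its values were seen. Nsdhl lost its call without combination 2, vehicle 2 or anti-PD1 2 (adjusted p up to 0.0644). Hmgcs1 lost its call without regorafenib 1, combination 2, any vehicle library or anti-PD1 2 (adjusted p up to 0.0816). Tm7sf2 lost its call without regorafenib 2, regorafenib 3, combination 1, combination 2, any vehicle library, anti-PD1 2 or anti-PD1 3 (adjusted p up to 0.0876). With 1 library left out 2 to 8 enzymes were lower, 2 of them without anti-PD1 2.

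The promoters of these 4 fallen enzymes are shown because they share the CCAAT box, the binding motif of NF-Y, which works beside the sterol regulator SREBP at such genes. Each sequence runs from 250 bases before to 50 bases after the gene's start in RefSeq (GRCm38.p6), 5′ to 3′ on the gene's strand, with capitals at CCAAT on either strand (ATTGG on the reverse) and at TCACNCCAC, a sterol response element, on either strand.
Mvk (chr5:114444019-114444318, + strand): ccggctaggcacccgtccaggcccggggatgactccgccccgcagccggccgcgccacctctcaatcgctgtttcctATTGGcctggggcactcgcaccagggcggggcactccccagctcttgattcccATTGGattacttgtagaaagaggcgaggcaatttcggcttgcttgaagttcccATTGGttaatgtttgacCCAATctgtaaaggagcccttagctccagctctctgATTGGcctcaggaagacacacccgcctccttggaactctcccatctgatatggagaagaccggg
Ebp (chrX:8193463-8193762, - strand): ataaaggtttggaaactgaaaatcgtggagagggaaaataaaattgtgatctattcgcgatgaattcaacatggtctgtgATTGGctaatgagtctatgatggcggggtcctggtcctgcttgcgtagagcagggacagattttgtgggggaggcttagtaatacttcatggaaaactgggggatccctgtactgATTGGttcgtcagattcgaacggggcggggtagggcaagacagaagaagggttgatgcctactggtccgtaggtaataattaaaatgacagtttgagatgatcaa
Nsdhl (chrX:72918271-72918570, + strand): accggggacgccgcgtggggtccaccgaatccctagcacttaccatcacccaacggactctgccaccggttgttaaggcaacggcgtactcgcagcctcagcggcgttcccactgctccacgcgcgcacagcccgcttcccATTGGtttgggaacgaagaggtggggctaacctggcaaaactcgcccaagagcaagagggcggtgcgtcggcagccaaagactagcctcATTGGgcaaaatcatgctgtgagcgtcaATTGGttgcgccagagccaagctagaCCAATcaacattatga
Hmgcs1 (chr13:119690101-119690400, + strand): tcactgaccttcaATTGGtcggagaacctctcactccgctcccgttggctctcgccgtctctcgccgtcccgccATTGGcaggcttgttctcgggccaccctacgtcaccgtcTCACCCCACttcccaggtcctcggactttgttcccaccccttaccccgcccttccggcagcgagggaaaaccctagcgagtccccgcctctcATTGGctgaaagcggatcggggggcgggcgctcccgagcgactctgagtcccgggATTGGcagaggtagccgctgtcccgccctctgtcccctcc
Mvk held 5 CCAAT boxes, Nsdhl and Hmgcs1 4 each and Ebp 2, and the single TCACNCCAC was in Hmgcs1. Of the 20 tested enzymes 15 matched the promoter table by symbol, and 13 of these held CCAAT, against 37.9% of all 27025 promoters of the same length. Most matched enzymes that did not fall thus held it too, and CCAAT does not set the fallen enzymes apart. TCACNCCAC was in 1 of the 15, against 1.22%. These are matches of letters, and binding was not measured.

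Genes of other lipids moved in part. The desaturase gene Scd2 (-0.48, 0.0258) was the 1 of 15 fatty acid synthesis genes that passed (6.67% lower, against 3.32% of all genes). Of 11 genes of sterol export and LXR control 9 were positive and 1 rose (9.09%, against 6.16% of all genes), the cholesterol exporter Abca1 (0.62, 0.0476). Choline kinase, which starts the making of phosphatidylcholine, rose: Chka had 95.1 to 133 CPM (median 107) with regorafenib and 62.9 to 78.4 CPM (median 71.0) without it (log2 fold change 0.64 ± 0.064, adjusted p 0.00287), and no levels overlapped. The next enzyme of that route, Pcyt1a, had 44.4 to 56.9 CPM (median 50.5) with regorafenib and 59.0 to 65.9 CPM (median 63.8) without it (log2 fold change -0.31 ± 0.061, adjusted p 0.0153), so its groups were separate in the opposite direction. Phospholipid synthesis as a whole had 3 higher and 1 lower of 24 (12.5% and 4.17%, against 6.16% and 3.32% of all genes). Mgll, the monoacylglycerol lipase, fell (-0.74, 0.0144). Chka, Pcyt1a and Mgll kept their calls with each library left out. Scd2 lost its call without combination 2, vehicle 2, anti-PD1 2 or anti-PD1 3 (adjusted p up to 0.0756). Abca1 lost its call without regorafenib 2, regorafenib 3, any combination library, any vehicle library, anti-PD1 2 or anti-PD1 3 (adjusted p up to 0.113).

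**Figure D4:**
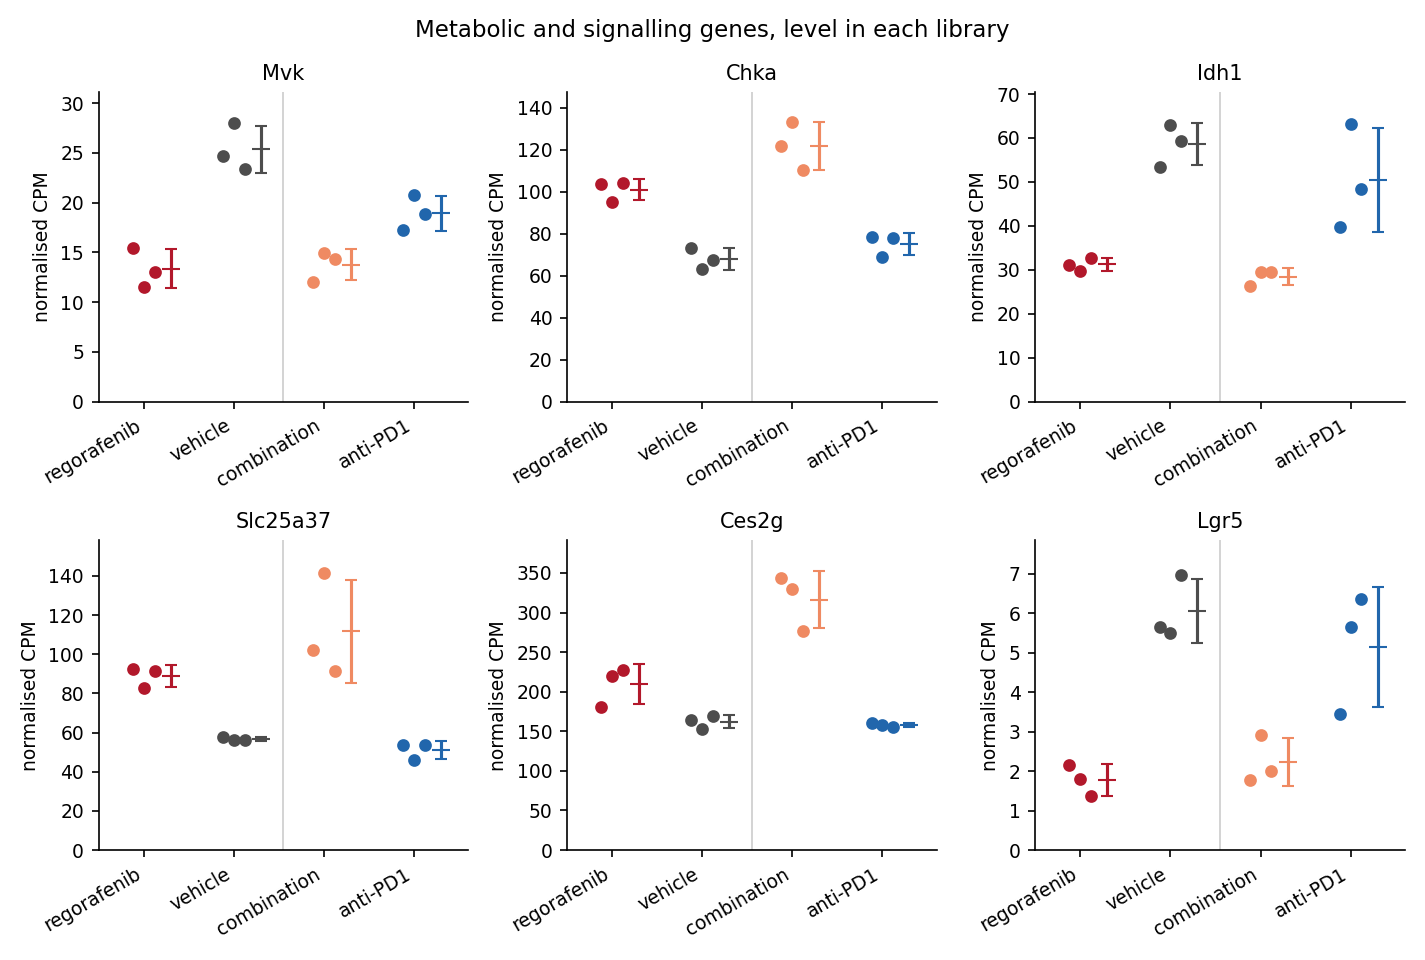
Level (CPM, vertical axis) of 6 metabolic and signalling genes in the regorafenib, vehicle, combination and anti-PD1 groups; each point is 1 library, and the bars are the mean and SD of 3. Mvk, Idh1 and Lgr5 are lower and Chka, Slc25a37 and Ces2g higher in all 6 libraries with regorafenib than in the other 6.

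In the list of iron uptake, storage and haem synthesis, 2 of 28 rose and 1 fell, shares (7.14% and 3.57%) near those of all genes. Those that rose were Lcn2 (1.60, 0.0305), an iron-binding secreted protein, and Ppox (0.57, 0.0196), of haem synthesis. Lcn2 lost its call without regorafenib 3, combination 1, combination 2, vehicle 2, vehicle 3 or anti-PD1 2 (adjusted p up to 0.0779). Ppox lost its call without combination 2, any vehicle library or anti-PD1 2 (adjusted p up to 0.0644). The gene that fell was the transferrin receptor gene Tfr2, with 0.761 to 1.15 CPM (median 0.897) with regorafenib and 2.25 to 4.94 CPM (median 2.98) without it (log2 fold change -1.81 ± 0.20, adjusted p 0.00298), and no library with regorafenib reached the range of the others. The mitochondrial iron carriers stand outside that list, among the solute carriers. Slc25a37, mitoferrin 1, which carries iron into mitochondria, had 82.6 to 142 CPM (median 92.0) with regorafenib and 45.9 to 57.9 CPM (median 54.9) without it (log2 fold change 0.89 ± 0.099, adjusted p 0.00302). Its relative Slc25a28, mitoferrin 2, had 88.8 to 116 CPM (median 99.2) with regorafenib and 65.8 to 82.2 CPM (median 73.2) without it (log2 fold change 0.45 ± 0.064, adjusted p 0.00580). Both rose with separate groups in each case, and Slc25a37 shares 381 exonic bases with an RNA on the opposite strand.

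Carboxylesterases, which hydrolyse esters of drugs and lipids, had 3 higher (37.5%, against 6.16% of all genes) and 0 lower of 8. All 3 were of the Ces2 group, while 4 of the 8 were negative. The median of the list was -0.20 for regorafenib alone and 0.55 on anti-PD1, a difference that was not tested for the list. Ces2g had 181 to 343 CPM (median 252) with regorafenib and 153 to 169 CPM (median 159) without it (log2 fold change 0.69 ± 0.075, adjusted p 0.00298), all treated libraries being higher. Its log2 fold change was 0.37 alone and 1.00 on anti-PD1. Ces2e had 43.5 to 82.1 CPM (median 70.0) with regorafenib and 35.7 to 55.0 CPM (median 46.1) without it (log2 fold change 0.55 ± 0.097, adjusted p 0.0114), and its log2 fold change was 0.10 alone and 1.01 on anti-PD1, while the interaction did not pass for either (adjusted p 1.00). Regorafenib 2 lay below vehicle 1 to 3 for Ces2e. Ces2b (0.64, 0.0202) rose as well. Ces2b lost its call without vehicle 2 (adjusted p up to 0.0540). These genes are near copies of each other, so reads may be split between them in ways the counting decides. Aldehyde dehydrogenases had 0 higher and 1 lower of 19, Aldh3b2 (-1.21, 0.00582), glutathione transferases 0 and 2 of 18, Gstm2 (-0.75, 0.0153) and Gstz1 (-0.25, 0.0142), and retinoid metabolism 0 and 1 of 18, the retinol dehydrogenase gene Rdh11 (-0.47, 0.00779). These 4 kept their calls with each library left out, and the lower shares were 5.26%, 11.1% and 5.56%, against 3.32% of all genes. Cytochrome P450 enzymes had 1 higher and 2 lower of 32 (3.12% and 6.25%, against 6.16% and 3.32% of all genes). Targets of NRF2, the regulator of oxidative defence, had 0 of 25 by edgeR (5 at an unadjusted p under 0.05, 2 by DESeq2) past the threshold, with 18 negative.

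Across all 225 tested solute carriers 13 rose and 6 fell, shares (5.78% and 2.67%) near those of all genes. The mitochondrial carrier Slc25a27 (0.67, 0.00566), the nucleoside transporter Slc29a2 (0.49, 0.0119) and Slc23a3 (0.82, 0.00823) were higher in every fit with 1 library left out. Vacuolar proton ATPase subunits, which acidify lysosomes and were added after the values were seen, had 3 lower (13.6%, against 3.32% of all genes) and 0 higher of 22, with 17 negative. Atp6v0d1 had 69.6 to 85.8 CPM (median 75.5) with regorafenib and 86.1 to 109 CPM (median 101) without it (log2 fold change -0.40 ± 0.065, adjusted p 0.00838), with all treated libraries lower. Atp6v1e1 (-0.33, 0.00699) and Atp6v1h (-0.32, 0.0153) fell too. Coat proteins of secretory vesicles, a family also added after the values were seen, had 4 lower (11.4%) and 1 higher of 35, led by Sec23a (-0.39, 0.00699). RAB GTPases had 5 lower (7.81%) and 1 higher of 64, led by Rab1b (-0.28, 0.00948), which acts between the endoplasmic reticulum and the Golgi. Leaving out 1 library gave the coat proteins 1 to 5 lower and the RAB GTPases 1 to 8, in both the fewest without anti-PD1 2, and with the replicate block they had 1 and 2. The sorting nexin gene Snx7 (-0.58, 0.00475) fell as well. These 6 genes kept their calls with each library left out. The proteasome had 0 of 33 by edgeR (9 at an unadjusted p under 0.05, 2 by DESeq2) past the threshold but 32 negative, with a median of -0.11, and lysosomal enzymes had 1 higher of 35.

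TRIM proteins, a family of ubiquitin ligases of which several act in antiviral defence, rose in 12 of 47 cases (25.5% against 6.16%) with 0 lower and a median of 0.20. Trim39 had 32.8 to 46.6 CPM (median 37.4) with regorafenib and 24.9 to 31.1 CPM (median 27.5) without it (log2 fold change 0.47 ± 0.070, adjusted p 0.00593). Trim11 had 88.2 to 116 CPM (median 95.6) with regorafenib and 59.6 to 86.8 CPM (median 65.4) without it (log2 fold change 0.53 ± 0.084, adjusted p 0.00747), and Trim6 had 17.0 to 26.5 CPM (median 19.5) with regorafenib and 10.1 to 13.4 CPM (median 11.97) without it (log2 fold change 0.78 ± 0.12, adjusted p 0.00753). In all 3 the groups were separate. Trim46 (0.68, 0.00991) and Trim34b (0.69, 0.0111), a near copy of its neighbours, rose as well, the last named after its values were seen. With 1 library left out 6 to 12 members were higher, the fewest without anti-PD1 2. Ubiquitin-specific proteases had 3 higher and 3 lower of 49 (6.12% each, against 6.16% and 3.32% of all genes). Among them Usp36 (0.37, 0.00779), of the nucleolus, was up and Usp46 (-0.41, 0.00949) down in every fit with 1 library left out. Lysine methyltransferases and demethylases had 4 of 34 higher (11.8%) and 0 lower, and 0 were higher without anti-PD1 2.

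Of 40 tested genes of Wnt signalling 5 fell and 2 rose (12.5% and 5%, against 3.32% and 6.16% of all genes). Of the 40, 30 were negative, with a median of -0.19. Lgr5, a receptor for R-spondins and a stem cell marker in several epithelia, had 1.37 to 2.92 CPM (median 1.90) with regorafenib and 3.44 to 6.98 CPM (median 5.65) without it (log2 fold change -1.49 ± 0.20, adjusted p 0.00496). Treated libraries lay below all others, the nearest of which was anti-PD1 1. The receptor Fzd1 (-0.58, 0.0216) and the ligand Wnt5b (-1.26, 0.0240) fell too. Fzd1 lost its call without vehicle 1, vehicle 2 or anti-PD1 2 (adjusted p up to 0.0610). Wnt5b lost its call without combination 2, vehicle 1, vehicle 2, anti-PD1 2 or anti-PD1 3 (adjusted p up to 0.0660). Imprinted genes had 3 higher and 3 lower of 22 (13.6% each, against 6.16% and 3.32% of all genes). Mest, a hydrolase-like gene of mesodermal tissue, had 1.63 to 3.00 CPM (median 2.02) with regorafenib and 6.92 to 14.02 CPM (median 12.6) without it (log2 fold change -2.38 ± 0.18, adjusted p 0.000909), and the zinc finger gene Peg3 (-1.41, 0.0165) fell as well, while Igf2r (0.30, 0.0147), a receptor that clears IGF2, rose. Protocadherins had 1 lower of 44 (2.27%, against 3.32% of all genes), but 38 were negative, with a median of -0.42. The 1 that passed was Pcdh12 (-1.84, 0.00276), of vascular endothelium.

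Of 22 clock genes 3 rose (13.6% against 6.16% of all genes) and 0 fell, with a median of 0.18. With the Y-linked sum as a covariate 4 were higher and 4 lower, with a median of 0.06. Per2, a repressor in the clock's feedback loop, had 22.2 to 46.4 CPM (median 30.3) with regorafenib and 11.5 to 23.1 CPM (median 19.8) without it (log2 fold change 0.83 ± 0.15, adjusted p 0.0134). Cry2, its partner, had 23.3 to 46.7 CPM (median 33.5) with regorafenib and 19.6 to 25.8 CPM (median 22.5) without it (log2 fold change 0.56 ± 0.089, adjusted p 0.00756). Regorafenib 1 reached into the untreated range in both. Arntl2, a clock activator, had 87.0 to 150.3 CPM (median 117) with regorafenib and 75.0 to 85.1 CPM (median 80.0) without it (log2 fold change 0.52 ± 0.10, adjusted p 0.0155), without overlap. Arntl2 lost its call without vehicle 3 (adjusted p up to 0.0510). The labels give no hour of collection, so a difference in time of day and the drug cannot be told apart for these genes. In the list of ERK feedback and outputs, 17 of 19 were positive, with a median of 0.48, and 13 had an unadjusted p under 0.05. Of the 19, 4 rose (21.1%, against 6.16% of all genes) and 2 fell, a share also above the 3.32% of all genes. In the 2 that fell, all treated libraries lay below all others. DESeq2 called 9 higher and 2 lower, and with 1 library left out edgeR had 1 to 12 higher, the fewest without anti-PD1 2. The feedback inhibitor genes Spred3 (0.99, 0.0137) and Dusp6 (0.52, 0.0196), a phosphatase of ERK, rose, while the feedback inhibitor gene Spry4 (-1.46, 0.00496) fell. Dusp6 lost its call without combination 2, vehicle 1, vehicle 2 or anti-PD1 2 (adjusted p up to 0.0551). Genes of FGF, IGF and HGF signalling had 2 higher and 3 lower of 24 (8.33% and 12.5%, against 6.16% and 3.32% of all genes). Among them Fgfbp1 (-0.64, 0.0144), which releases stored FGF, was lower in every fit with 1 library left out. The kinases that regorafenib binds had 1 of 20 past the threshold (5% lower, against 3.32% of all genes), the lymphatic VEGF receptor gene Flt4 (-0.65, 0.0474), which fell. Flt4 lost its call without any regorafenib library, combination 2, combination 3, any vehicle library or any anti-PD1 library (adjusted p up to 0.108).

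Of 21 genes of prostaglandins and leukotrienes 2 rose and 1 fell (9.52% and 4.76%, against 6.16% and 3.32% of all genes). Of the 21, 11 were positive and the median was 0.02. Of the prostaglandin E2 receptors, Ptger1 rose and Ptger3 (-1.06, 0.0196) fell. Ptger3 lost its call without combination 2, vehicle 1 or anti-PD1 2 (adjusted p up to 0.0598). Ptger1 had 4.69 to 7.47 CPM (median 5.98) with regorafenib and 2.66 to 3.52 CPM (median 3.19) without it (log2 fold change 0.91 ± 0.12, adjusted p 0.00453). Outside that list, Ltb4r1, the leukotriene B4 receptor of myeloid cells, had 12.4 to 15.5 CPM (median 13.9) with regorafenib and 7.22 to 10.49 CPM (median 9.01) without it (log2 fold change 0.64 ± 0.075, adjusted p 0.00308). Neither overlapped between the groups. Ptger1 shares 3875 of its 5459 exonic bases with the opposite strand's annotation, and Tagln, given below, 1241 of 1988 with a predicted RNA there. The phospholipase C gene Plch2 (0.66, 0.00308), the glycerophosphodiesterase gene Gdpd5 (0.58, 0.00308) and the ion channel Trpv3 (0.55, 0.00496) of keratinocytes rose and kept their calls with each library left out. Among other genes with the smallest p, the granule fusion factor Unc13d (0.58, 0.00298), the small Maf factor Mafg (0.54, 0.00298), the amine oxidase Aoc2 (0.93, 0.00276), the collagen gene Col11a2 (0.96, 0.00287) and Spaca6 (0.98, 0.00308), which encodes a sperm protein, rose. On the lower side stood the matrix genes Col8a2 (-2.82, 0.00380) and Col13a1 (-1.46, 0.00496), the contractile gene Tagln (-1.77, 0.00496), the endothelial lipase anchor Gpihbp1 (-1.47, 0.00551), the adhesion receptor Adgrl2 (-0.91, 0.00581), the endothelial sialomucin Emcn (-0.99, 0.00581) and the nonclassical MHC gene H2-M5 (-2.63, 0.00475). All 12 of these genes of smallest p kept their calls with each library left out. Mafg and Spaca6 share bases with neighbours on their strand.

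Among the genes with the largest changes, Mmp3, a matrix protease, had 85.2 to 214 CPM (median 163) with regorafenib and 29.6 to 77.2 CPM (median 48.1) without it (log2 fold change 1.58 ± 0.29, adjusted p 0.0130), and all treated libraries were higher than the others. The glycosyltransferase gene A3galt2 (1.66, 0.00566) and the myeloid lectin receptor gene Clec4d (1.90, 0.0153) rose as well, and these 3 kept their calls with each library left out. Ceacam16 (1.58, 0.0373), of an adhesion molecule family, rose, while the matrix gene Cthrc1 (-2.18, 0.0462) and the phosphatase gene Ptprd (-2.05, 0.0237) fell. Ceacam16 lost its call without regorafenib 1, regorafenib 2, any combination library, any vehicle library, anti-PD1 1 or anti-PD1 2 (adjusted p up to 0.0861). Cthrc1 lost its call without regorafenib 1, regorafenib 3, any combination library, any vehicle library, anti-PD1 2 or anti-PD1 3 (adjusted p up to 0.1204). Ptprd lost its call without combination 1, combination 2, vehicle 1, vehicle 3 or anti-PD1 2 (adjusted p up to 0.0671). Of the 8 higher and 8 lower genes with the largest change at a mean of at least 1 CPM, 6 kept their calls in all 12 such fits, and the others in 2 to 8. Of all 1610 genes called, 400 did so. Fibroblast markers, given above, ran lower in most treated libraries, and their part in these results was not tested.

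Of 21 basal squamous markers 1 rose and 1 fell (4.76% each, against 6.16% and 3.32% of all genes). The one that rose was the laminin receptor subunit gene Itga3, with 109.8 to 215 CPM (median 157) with regorafenib and 67.4 to 103 CPM (median 98.8) without it (log2 fold change 0.82 ± 0.16, adjusted p 0.0149), and the one that fell was Krt14, the basal keratin, with 2287 to 3375 CPM (median 3197) with regorafenib and 3349 to 5102 CPM (median 4469) without it (log2 fold change -0.52 ± 0.13, adjusted p 0.0303). Itga3 levels were separate, while those of Krt14 overlapped. Krt14 lost its call without regorafenib 1, combination 2, any vehicle library or anti-PD1 2 (adjusted p up to 0.0811). Keratins had 1 lower of 19 (5.26%, against 3.32% of all genes), which was Krt14, and cornified envelope genes 1 lower of 18 (5.56%). Tight junction proteins had 0 of 19 by edgeR (3 at an unadjusted p under 0.05, 1 by DESeq2) and desmosome proteins 0 of 13 by edgeR (2 at an unadjusted p under 0.05, 0 by DESeq2). The motor gene Myh9 (0.64, 0.0134), nonmuscle myosin IIA, rose and kept its call with each library left out. Of the cell cycle lists, mitosis had 0 of 32 by edgeR (1 at an unadjusted p under 0.05, 0 by DESeq2) and DNA replication 0 of 35 by edgeR (2 at an unadjusted p under 0.05, 1 by DESeq2), though 30 of the 32 mitotic genes were negative (median -0.20). DNA repair had 3 of 36 higher (8.33%, against 6.16% of all genes). In stress lists, 3 of 27 genes of the unfolded protein response (11.1%) and 2 of 28 p53 targets (7.14%) were higher, against 6.16% of all genes. Of 25 ATF4 targets 1 was higher (4%), the cysteinyl-tRNA synthetase gene Cars (0.39, 0.0134).

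**Figure D5:**
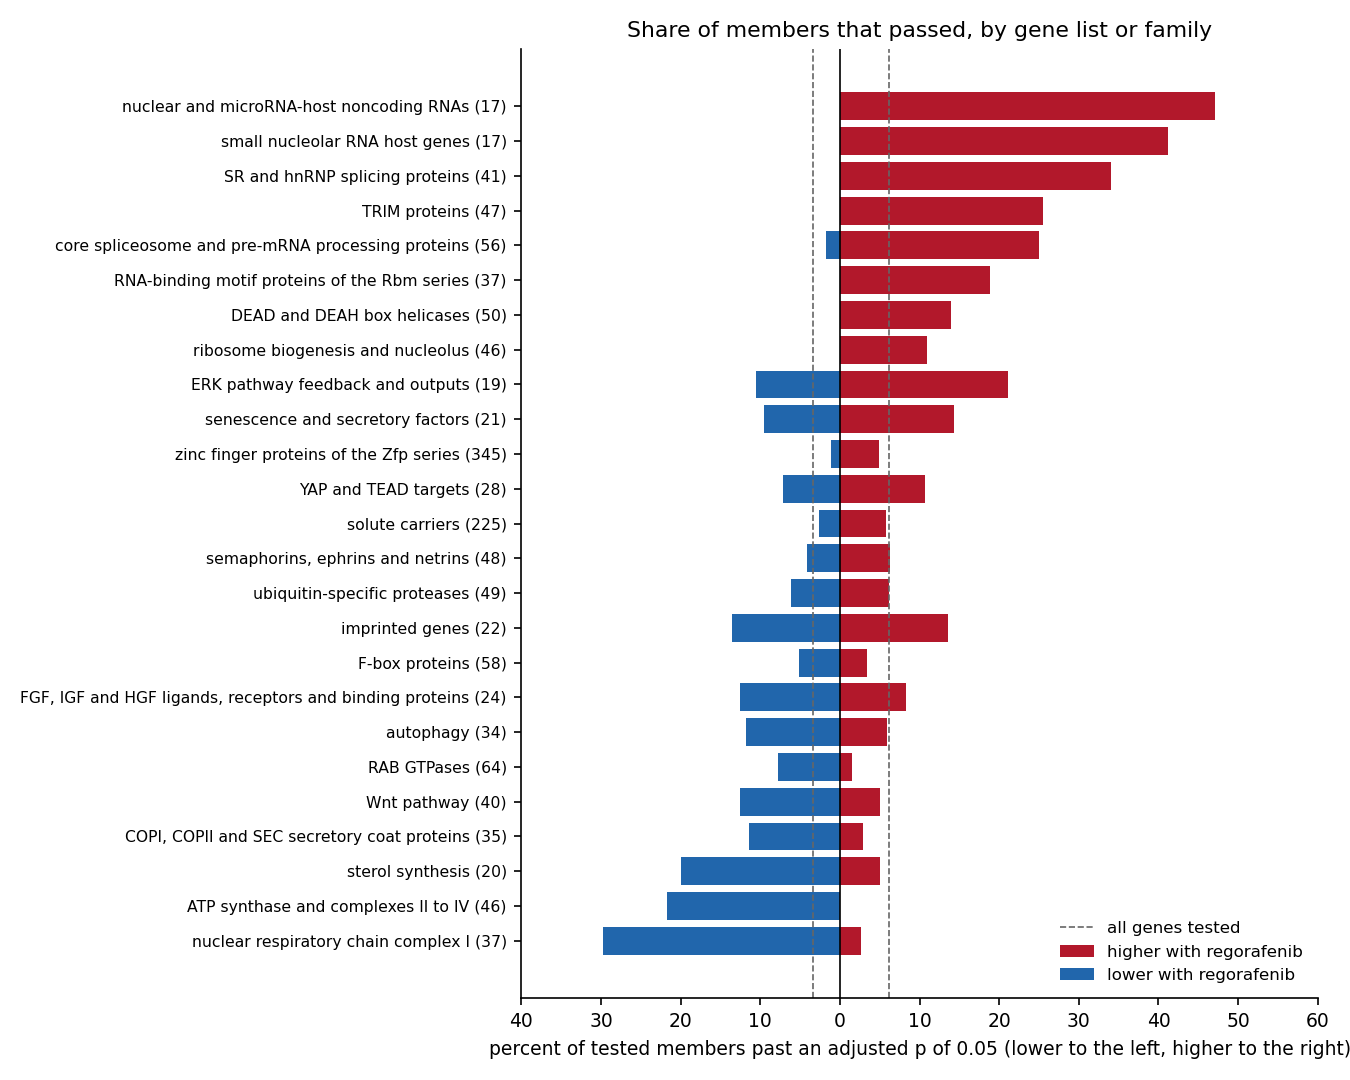
Percent of tested members past an adjusted p of 0.05 (horizontal axis, lower to the left and higher to the right of 0) for the gene lists and families with at least 15 tested members and at least 5 past the threshold, with the number tested in brackets; dashed lines mark all genes tested, at 6.16% higher and 3.32% lower. RNA-related lists and TRIM proteins extend furthest to the right, respiratory chain and sterol synthesis furthest to the left.

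In myeloid receptors, 4 of 33 Fc and lectin receptors rose (12.1%, against 6.16% of all genes) and 0 fell, with a median of 0.38: Clec4d (1.90, 0.0153), Trem1 (1.09, 0.0322), which amplifies inflammation, and the inhibitory receptors Lilrb4a (1.26, 0.0215) and Lilr4b (1.37, 0.0240), near copies of each other. Trem1 lost its call without regorafenib 1, regorafenib 3, combination 1, combination 2, any vehicle library, anti-PD1 2 or anti-PD1 3 (adjusted p up to 0.0919). Lilrb4a lost its call without combination 2, vehicle 2, vehicle 3 or anti-PD1 2 (adjusted p up to 0.0654). Lilr4b lost its call without combination 2, any vehicle library or anti-PD1 2 (adjusted p up to 0.0651). Markers of T and NK cells had 1 higher of 21 with 20 positive in the average, macrophages and monocytes 0 of 16 by edgeR (2 at an unadjusted p under 0.05, 1 by DESeq2), mast cells and basophils 0 of 10 by edgeR (1 at an unadjusted p under 0.05, 1 by DESeq2) and the tumour necrosis factor family 0 of 32 by edgeR (6 at an unadjusted p under 0.05, 1 by DESeq2). The median of the T and NK list was 0.88 for regorafenib alone and -0.17 on anti-PD1. That of macrophages and monocytes was 0.45 alone and -0.09 on anti-PD1. These differences were not tested for the lists. Summed over their markers, neutrophils had 9.96 to 44.1 CPM (median 31.6) with regorafenib and 8.77 to 25.9 CPM (median 12.9) without it, and T and NK cells 47.9 to 152 CPM (median 101) with regorafenib and 56.4 to 154 CPM (median 65.0) without it. B cell and adipocyte markers were close to 0, and Ms4a1, Cd79a, Adipoq, Plin1, Cidec and Lep were at 0 in at least 1 library. Skeletal muscle markers summed to 1.06 to 249.6 CPM (median 144) with regorafenib and 69.1 to 202 CPM (median 120.2) without it, and muscle genes passed in 0 of 19 by edgeR (0 at an unadjusted p under 0.05, 0 by DESeq2).

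The number of members past the threshold moved with the fit, as did the number over all genes. With the replicate number as a block, where 375 genes were higher and 129 lower in all, SR and hnRNP proteins had 9 higher and 0 lower, snoRNA hosts 5 and 0, nuclear RNAs 4 and 0, TRIM proteins 6 and 0, complex I 0 and 3, ATP synthase and complexes II to IV 0 and 1, and sterol synthesis 0 and 2. Without the filter on low counts, where 653 genes were higher and 306 lower in all, SR and hnRNP proteins had 11 higher and 0 lower, snoRNA hosts 6 and 0, nuclear RNAs 7 and 0, TRIM proteins 9 and 0, complex I 0 and 5, ATP synthase and complexes II to IV 0 and 1, and sterol synthesis 1 and 4. With the summed level of the 4 Y-linked genes as a covariate, where 1855 genes were higher and 1535 lower in all, SR and hnRNP proteins had 16 higher and 0 lower, snoRNA hosts 10 and 0, nuclear RNAs 11 and 1, TRIM proteins 20 and 4, complex I 1 and 17, ATP synthase and complexes II to IV 0 and 22, and sterol synthesis 1 and 5.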

How the data were processed

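RNA was measured in 12 tumour samples with stranded libraries of polyadenylated RNA, per the labels' protocols. The authors deposited raw read counts per gene in 1 table of 55487 identifiers. Trimming used cutadapt 2.4 and alignment STAR 2.7.2a to mouse build GRCm38, per the submitters' processing notes, while how reads were counted, on which strand and with which annotation is not given in the sources used here. Names, classes and overlaps came from GENCODE M21, and promoters from RefSeq (GRCm38.p6).

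filterByExpr (minimum count 10, minimum total 15) left 16974 genes with 99.91% to 99.94% of the counts. They were fitted with edgeR 4.0.16 under R 4.3.3 (TMM factors, robust quasi-likelihood, limma 3.58.1) as 4 group means over 12 libraries, with 8 residual degrees of freedom and a common biological coefficient of variation of 0.227. The tested contrast averaged regorafenib minus vehicle and combination minus anti-PD1. Tests were two-sided and adjusted by Benjamini-Hochberg over all genes of a comparison. Depth sets the precision of genes with few counts. The procedure was tested on simulated data, with 200 genes of at least 1 CPM changed by known amounts. It called 52% of those changed 1.5-fold, 78% at 2-fold, 96% at 3-fold and 100% at 5-fold, with 11 false calls. Many changes smaller than 2-fold can therefore be missed. The simulation held no differences in stroma between libraries. It also held no difference in the drug's effect between backgrounds, so it does not measure how often such a difference would be found.

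Genes named were the 15 of each sign with the smallest p, the 8 of each sign with the largest change (mean of at least 1 CPM, predicted names and pseudogenes left out), up to 4 members of each list with the smallest p (6 in large families), and genes said to be named after their values were seen. Some genes that meet this rule are not reported here. Comparison, lists and rule were chosen with earlier results of these data known. Alternatives were DESeq2 1.42.0, RLE factors, no filter, a replicate block, an additive model, a Y-linked covariate, protein-coding genes alone, the 6 libraries of a pair, and each library left out. Lists are described by counts and medians, without a test.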

Additional observations from a re-analysis of the deposited data

How the results depend on the processing

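For the average effect of regorafenib (1610 genes), DESeq2 gave 2808 genes (1574 higher, 1234 lower, so 56.1% higher against 65.0%), the Y-linked covariate 3390 (1855 higher, 1535 lower), no filter on low counts 959 (653 higher, 306 lower) and the replicate block 504 (375 higher, 129 lower). RLE factors gave 1602, the additive model 1870 and protein-coding genes alone 1216, and leaving out 1 library gave 460 to 2048. Regorafenib against vehicle (1 gene) gave 425 with DESeq2, 287 with the covariate, 6 without a filter, 0 with the block, 0 from the 6 libraries of the pair and 0 to 4 with 1 library left out. The combination against anti-PD1 (326 genes) gave 1202 with DESeq2, 812 with the covariate, 0 with the block, 0 from the 6 libraries of the pair and 0 to 432 with 1 library left out: 0 without anti-PD1 2, anti-PD1 3 or combination 2, 21 without combination 1, 45, 89 and 58 without vehicle 1, 2 and 3, and 209 without regorafenib 3. At an unadjusted p under 0.05 the counts of 0 stood beside 1640 to 2785 genes. The interaction gave 0 under each alternative. The causes were not tested. Samples with the same replicate number had correlations of -0.657 to 0.63 in their deviations from group means. Those with different numbers had -0.499 to 0.531. These overlapping ranges cannot tell whether the numbers pair the samples.

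Of 2754 list medians under the alternatives, 36 moved by at least the SD of single libraries within a group. Leaving out 1 library can hardly shift a list by that much, so this count cannot show that the lists are stable. Some medians near 0 changed sign. With 1 library left out, that of DNA replication ran from -0.14 to 0.10 and that of ATF4 targets from -0.05 to 0.11. Of 2498 recomputed values for 132 of the genes named, 187 kept their direction without passing, 3 passed where the main fit had not, and 0 turned direction. The scaling alternatives moved the median of all genes by less than 0.1. Limits are 3 samples a group, 1 cell line and dose, libraries that differ in stroma, and counting rules that are not given.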
